A study of Homo sapiens with 9 samples.

Results

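The genes described here are 37 components of homologous recombination and of the Fanconi anaemia pathway, measured in PANC-1 cells after inhibition of fatty acid synthase. PANC-1 is an established human line from a pancreatic adenocarcinoma. Every probe set annotated to exactly 1 gene, that gene being on the list under its present or an older symbol, was taken. Of the 37 genes, 33 had such a probe set (72 probe sets in all, 60 of them above a filter on low signal), and 32 could be tested among 13948 genes of the array. BRCA2, FANCA, FANCD2 and RBBP8 were not analysed here, and the 4 probe sets of FANCB all lay below the filter, a mean signal of about 38.95.

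Homologous recombination repairs broken or stalled DNA by copying from the sister chromatid. Checkpoint kinases signal the damage, nucleases trim the broken ends, BRCA1, PALB2 and BRCA2 prepare the trimmed strand for pairing with its template, and helicases and nucleases take the joined molecules apart again. The Fanconi pathway recognises crosslinked strands at a stalled fork, attaches ubiquitin to the FANCI and FANCD2 pair, and hands the lesion to recombination; many of these genes are transcribed most in cells that are replicating their DNA.

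A day after seeding, the growth medium was replaced by one with a low share of charcoal-filtered serum. The cells then received vehicle (DMSO) or TVB-3166, which the series title presents as an inhibitor of fatty acid synthase, at 0.1 or 1.0 µM for 72 hours. Each of these 3 groups has 3 Affymetrix HG-U133 Plus 2.0 arrays, which measure bulk RNA. Groups follow the sample titles, since the treatment field of the 1.0 µM samples names the lower dose and the description of 0.1 µM replicate 1 names DMSO. The labels also disagree on the strength of the vehicle: the treatment field of the DMSO samples gives 0.05% DMSO, and the descriptions of both vehicle and treated samples give 0.5%. The series design gives triplicate treatments, but the labels do not say that the replicates were separate cultures. The p-values therefore measure the spread between these arrays, which may be technical.

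Arrays of a group correlated at 0.981 to 0.9899 across genes, which are not independent replicates. The epithelial markers KRT8, KRT18, KRT19, EPCAM and CDH1 were all above the filter. So were the mesenchymal markers VIM and CDH2, at median signals of 19747 and 1687. PTPRC of blood, CDH5 of endothelium, CPA1 of acinar cells and the endocrine INS, GCG and CHGA were below the filter. CD3E of T cells, at a median signal of 65.9, and 1 of 5 probe sets of the endothelial PECAM1 passed it. The hybridisation spikes, bacterial and phage sequences added to every sample, were brighter on DMSO replicate 2, 0.1 µM replicates 1 and 3 and 1.0 µM replicate 2 (a mean log2 signal above 11.67) than on the other 5 arrays. The labels name no batch that these arrays share.

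At 1.0 µM, 14 of the 32 tested genes fell and 3 rose against DMSO. A gene is called here at an adjusted p under 0.05 in limma's moderated test with Benjamini-Hochberg adjustment over all tested genes, and by that rule 11.0% of all tested genes were lower and 12.3% higher. The genes that fell came from each of the 8 roles into which the list was parted: CLSPN, CHEK1 and CHEK2 (checkpoint), EXO1 (resection), BRIP1 (BRCA1 partner), RAD51AP1 and RAD54L (strand exchange), UBE2T, FANCC and FANCM (Fanconi core), FANCI (ID complex), BLM and RMI2 (junction dissolution) and MSH6 (mismatch recognition). NBN, PALB2 and MUS81 rose, and 15 genes were not called. The median log2 change of the 32 genes was −0.34, beside 0.0064 for all tested genes, with single values from −1.56 (RAD51AP1) to 0.42 (MUS81). All 3 treated arrays lay under all 3 DMSO arrays in 17 of the 32, where 18.0% of all tested genes did so. Changes are differences of log2(signal + 16), which understate the change of dim genes, with the limma standard error and 3 arrays a group. In bulk RNA, fewer cells that express a gene and less of its RNA per cell cannot be told apart.

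At 0.1 µM, 9 genes fell and none rose in limma's test, where MUS81 was the 1 gene higher at an unadjusted p under 0.05. The background was 5.11% of all tested genes lower and 6.89% higher. The 9 were BLM, BRIP1, CHEK1, EXO1, FANCI, MSH6, RAD51AP1, RAD54L and UBE2T. The median change of the 32 was −0.34, beside −0.0064 for all tested genes, and 14 genes had all 3 treated arrays under DMSO, against a background of 14.6%. Both doses were compared with the same 3 DMSO arrays, so their results are not independent.

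**Figure D1:**
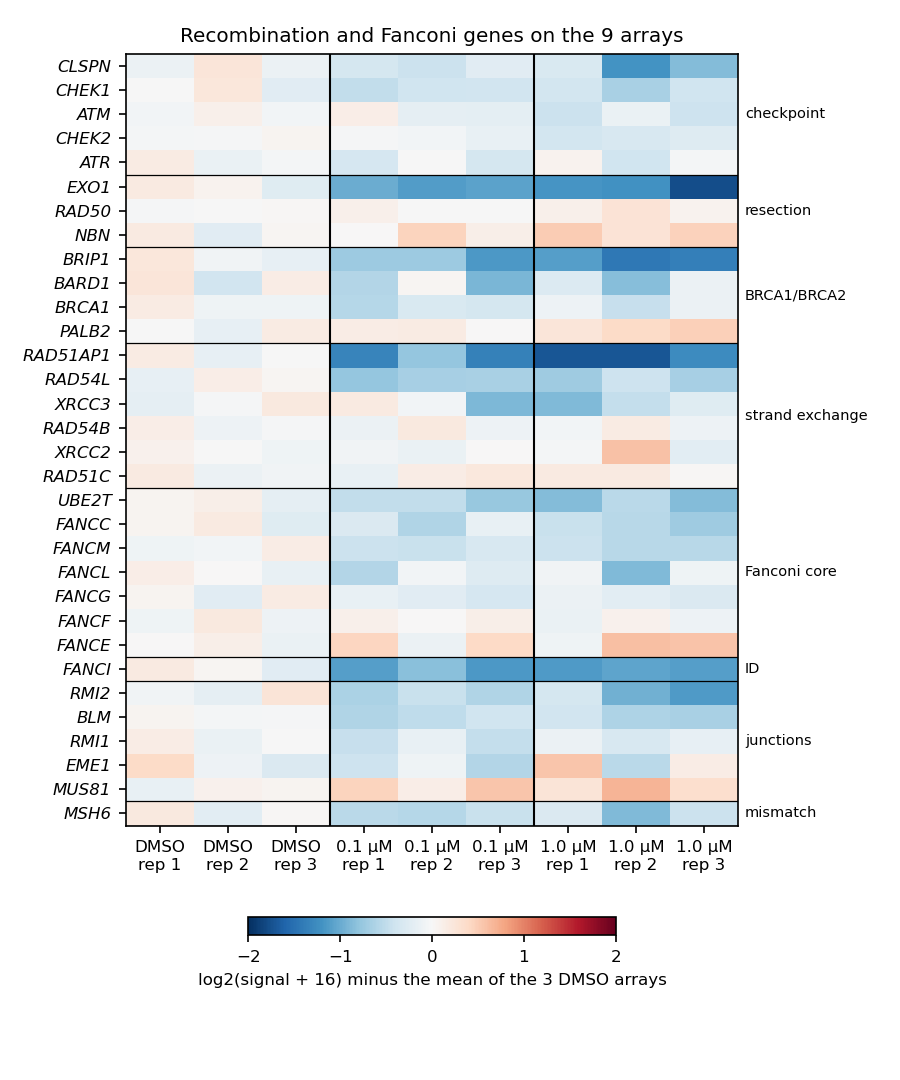
Heat map of the 32 tested genes (rows, grouped by role) on the 9 arrays (columns, rep = replicate); colour is log2(signal + 16) minus the mean of the 3 DMSO arrays. Blue cells fill the treated columns of RAD51AP1, EXO1, BRIP1 and FANCI, while RAD50, RAD51C and RAD54B stay near white in every column.

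The counts depended on single arrays. Without 1 array, 8 to 12 genes were called lower at 1.0 µM (8 without DMSO replicate 2, 9 without DMSO replicate 1 and 9 without 1.0 µM replicate 3) and 5 to 10 at 0.1 µM (5 without 0.1 µM replicate 1). The 3 rises at 1.0 µM were less firm: without 1 array, 0 to 3 were called (0 when DMSO replicate 2 or 1.0 µM replicate 3 was dropped, and 1 when either of the other DMSO arrays or 1.0 µM replicate 2 was), and median centring called 0. EXO1, BRIP1, RAD51AP1, UBE2T and FANCI were called lower at 1.0 µM under every alternative that was run.

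The proliferation markers MKI67, PCNA, TOP2A, CCNA2, CCNB1, CDK1, CCNE2 and RRM2 moved with these genes. All 8 fell at both doses, with a median log2 change of −1.07 at 0.1 µM and −1.26 at 1.0 µM. Their summed signal was 22600.1 to 26060 on the DMSO arrays, 11262 to 12906 at 0.1 µM and 9372 to 9742 at 1.0 µM. The epithelial markers fell in part: of 5 tested, KRT8 and KRT19 were lower at 1.0 µM (−0.86 ± 0.15 and −0.90 ± 0.17) and CDH1 at 0.1 µM (−0.59 ± 0.14), while KRT18 and EPCAM were not called. Their median change was −0.31 at 0.1 µM and −0.35 at 1.0 µM, and their summed signal was 54027 to 74872 in DMSO, 46284 to 65055 at 0.1 µM and 36545 to 51461 at 1.0 µM. The part of these shifts in the repair genes was not tested.

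Since many of these genes moved together, their promoters were read from RefSeq (GRCh38.p14), in windows from 250 bases before to 50 bases after each listed start. Windows were listed for 28 of the 32 tested genes (40 windows); FANCI, RMI2, NBN and RAD54B had none. The 3 kinds of word that mark cell cycle promoters were searched on both strands. One is an E2F word (TTTCCCGC, TTTGGCGC, TTTGCCGC or TTTCGCGC), which E2F factors can bind. Another is the cell cycle homology word CHR (TTTGAA or TTTAAA), used by the DREAM complex, and the last is the CCAAT box of the factor NF-Y. None of these words contains another, though their matches may overlap.

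An E2F word was present in 6 of the 40 windows, beside 3.31% of all 35116 windows and 4.68% of the windows of all tested genes. The sites are shown because they occur in genes of different steps: CLSPN of the checkpoint, EXO1 of resection, FANCC of the Fanconi core, MSH6 of mismatch recognition, RMI1 of dissolution and XRCC2 of strand exchange. Each is printed 5′ to 3′ on the gene's strand with 10 bases on either side, and capitals mark the word or its reverse complement.
CLSPN (chr1:35769966-35769993, minus strand): ctctggctggGCGGGAAAgcaagaacag
EXO1 (chr1:241848198-241848225, plus strand): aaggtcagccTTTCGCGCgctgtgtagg
FANCC (chr9:95317738-95317765, minus strand): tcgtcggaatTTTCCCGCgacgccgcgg
FANCC (chr9:95317864-95317891, minus strand): cggggcttccGCGCGAAAccgggaacac
MSH6 (chr2:47783138-47783165, plus strand): tccccccagaTTTCCCGCcagcaggagc
RMI1 (chr9:83980763-83980790, plus strand): gcgcgagcgcGCGGCAAAtcgggcggga
XRCC2 (chr7:152676103-152676130, minus strand): ggcgttggtgGCGGGAAAgttgagtctc
In CLSPN the word spans the start itself, and in EXO1, MSH6 and XRCC2 it lies just after it. Of these 6 genes, CLSPN, EXO1, FANCC and MSH6 were lower at 1.0 µM, and RMI1 and XRCC2 were not called. Among the 22 genes without the word, 8 were lower. Over all tested genes with a window, 15.3% of those with the word and 11.0% of those without it were lower. At 0.1 µM, 2 of the 6 and 6 of the 22 were lower, beside 8.86% and 5.01% of all tested genes.

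The CCAAT box was found in 52.5% of the tested genes' windows, against 34.6% of all windows. Of 17 genes with the box, 10 were lower at 1.0 µM, and of 11 without it, 2 (EXO1 and FANCC) were. The shares over all tested genes were 12.8% and 10.1%. At 0.1 µM, 7 of the 17 and 1 of the 11 were lower, beside 6.04% and 4.67% of all tested genes. CHR words stood in 6 of the 40 windows, and in 8424 of all 35116, in ATM, BLM, BRIP1, EXO1, FANCC and UBE2T; all of these but ATM were lower. Among the 22 genes without a CHR word 7 were lower, and over all tested genes the shares were 13.5% with the word and 10.7% without it. At 0.1 µM, 4 of the 6 and 4 of the 22 were lower, beside 7.34% and 4.67% of all tested genes. These counts describe letters in a window, with no test, and a match does not show that a factor binds.

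The 150 bases before the start are printed for 4 genes that fell and for PALB2, which rose, to set their CCAAT boxes side by side; capitals mark the box as CCAAT or, read on the other strand, ATTGG. The stretches lie at chr12:4538740-4538889, plus strand (RAD51AP1), chr17:61863529-61863678, minus strand (BRIP1), chr1:35769979-35770128, minus strand (CLSPN), chr1:202341937-202342086, minus strand (UBE2T) and chr16:23641311-23641460, minus strand (PALB2).
RAD51AP1: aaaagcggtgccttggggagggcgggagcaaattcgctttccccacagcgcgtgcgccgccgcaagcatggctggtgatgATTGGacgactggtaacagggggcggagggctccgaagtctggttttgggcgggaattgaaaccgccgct
BRIP1: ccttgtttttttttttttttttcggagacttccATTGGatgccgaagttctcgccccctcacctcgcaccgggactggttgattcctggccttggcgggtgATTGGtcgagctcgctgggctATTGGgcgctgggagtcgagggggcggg
CLSPN: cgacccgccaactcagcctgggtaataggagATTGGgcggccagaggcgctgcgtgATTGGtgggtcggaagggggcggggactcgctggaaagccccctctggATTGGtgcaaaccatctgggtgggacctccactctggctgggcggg
UBE2T: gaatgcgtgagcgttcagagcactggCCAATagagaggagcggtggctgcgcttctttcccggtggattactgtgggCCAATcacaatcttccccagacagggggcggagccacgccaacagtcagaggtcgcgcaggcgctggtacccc
PALB2: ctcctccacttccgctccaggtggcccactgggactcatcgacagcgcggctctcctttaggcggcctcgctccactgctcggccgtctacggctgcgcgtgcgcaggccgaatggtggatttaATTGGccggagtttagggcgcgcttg
BRIP1 and CLSPN hold 3 boxes each, UBE2T 2, and RAD51AP1 and PALB2 1 each, so the box stands before genes that fell and before one that rose. The same stretch of MUS81, which rose, holds none of the 3 words. The full window of MUS81 does hold 1 CCAAT box, farther before the start, at bases −238 to −234. EXO1, which fell, has 2 listed starts. The 150 bases before the first hold none of these words, and those before the second hold a CHR word.

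Of the checkpoint genes, 3 of 5 fell at 1.0 µM (CLSPN, CHEK1 and CHEK2) and 1 at 0.1 µM (CHEK1). CLSPN encodes claspin, the adaptor through which the kinase ATR activates the effector kinase CHEK1. CLSPN was dim: its signals were 104, 138 and 104 in DMSO, 85.8, 80.4 and 95.2 at 0.1 µM and 88.7, 40.6 and 54.9 at 1.0 µM. Every treated array lay under the DMSO arrays, and 1.0 µM replicates 2 and 3 were the lowest. The change was −0.34 ± 0.25 at 0.1 µM (adjusted p = 0.464) and −0.79 ± 0.25 at 1.0 µM (adjusted p = 0.0406), and the latter call was lost without any 1 of DMSO replicates 1, 2 or 3, 0.1 µM replicates 1, 2 or 3 or 1.0 µM replicates 2 or 3 (adjusted p 0.0513 to 0.127). Another CLSPN probe set had the larger change, −1.49 ± 0.27 (adjusted p = 0.00236 over all probe sets), from a mean signal of 96.6 to 23.8.

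CHEK1 gave 1116, 1315 and 948 in DMSO, 787, 846 and 849 at 0.1 µM and 861, 705 and 846 at 1.0 µM. All treated arrays were under the lowest DMSO array, and the doses overlapped. It fell by 0.43 ± 0.13 at 0.1 µM (adjusted p = 0.0489) and by 0.47 ± 0.13 at 1.0 µM (adjusted p = 0.0186). At 1.0 µM it was not called without any 1 of DMSO replicate 2 or 1.0 µM replicate 2 (adjusted p 0.0537 to 0.0791), and at 0.1 µM not without any 1 of DMSO replicates 1 or 2, 0.1 µM replicates 1, 2 or 3 or 1.0 µM replicates 1 or 3 (adjusted p 0.061 to 0.166).

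ATM, the kinase that answers to DNA breaks, read 2084, 2319.5 and 2072 in DMSO, 2371, 1909.5 and 1886 at 0.1 µM and 1592, 1964 and 1610.1 at 1.0 µM. The 1.0 µM arrays all lay under DMSO, with −0.33 ± 0.12 (adjusted p = 0.0621), and the 0.1 µM arrays overlapped both groups. It was called lower without 0.1 µM replicate 1 (adjusted p = 0.0486) or without 1.0 µM replicate 2 (adjusted p = 0.0191). This probe set is of a kind that can bind related transcripts; 2 other ATM probe sets fell at 1.0 µM, by 0.49 ± 0.09 and 0.46 ± 0.12 (adjusted p = 0.00187 and 0.0181). The first of these also fell at 0.1 µM, by 0.47 ± 0.09 (adjusted p = 0.00478). The remaining ATM probe sets above the filter were dim and changed by 0.02 ± 0.21 and −0.06 ± 0.30 at 1.0 µM. CHEK2, the effector kinase of ATM, averaged 539.8 ± 19.8 in DMSO and 430.1 ± 17.5 at 1.0 µM (SD, n = 3), a change of −0.32 ± 0.10 (adjusted p = 0.0445) that was lost without any 1 of the 9 arrays (adjusted p 0.0576 to 0.138). ATR was not called, at −0.12 ± 0.14; its signals on the 4 arrays with bright spikes (2047 to 2461) were all under those of the other 5 (2627 to 3031).

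Of the end resection genes, EXO1 fell at both doses and NBN rose at 1.0 µM. EXO1 is the exonuclease that lengthens the single-stranded tail on which recombination starts. Its signals were 375, 343 and 274 in DMSO, 157, 143 and 148 at 0.1 µM and 135, 132 and 84.3 at 1.0 µM. The groups did not overlap, in the order DMSO, 0.1 µM, 1.0 µM. EXO1 changed by −1.06 ± 0.20 at 0.1 µM (adjusted p = 0.00403) and −1.39 ± 0.20 at 1.0 µM (adjusted p = 0.000292), a fall of 2.63-fold.

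NBN and RAD50, subunits of the complex with MRE11 that first binds and trims a break, did not share that fall. NBN read 3340.3, 2515 and 3022 in DMSO, 2968, 3997 and 3198 at 0.1 µM and 4201, 3538 and 4058 at 1.0 µM. All 1.0 µM arrays were above DMSO, and the 0.1 µM arrays spanned both. Within each group the arrays with bright spikes were the low ones. The rise at 1.0 µM was 0.41 ± 0.13 (adjusted p = 0.0427) and was not called without any 1 of DMSO replicates 2 or 3, 0.1 µM replicate 3 or 1.0 µM replicates 1 or 3 (adjusted p 0.061 to 0.16). Of the other 4 NBN probe sets, 3 changed by 0.27 ± 0.09, 0.30 ± 0.09 and 0.32 ± 0.11 and a dim one by −0.34 ± 0.27. With adjustment over all probe sets, only the one at 0.30 was called (adjusted p = 0.033). The one at 0.41, which stands for the gene, was not (adjusted p = 0.0501). RAD50 read 3626, 3660.0 and 3749 in DMSO, 3955, 3662 and 3653 at 0.1 µM and 3929.6, 4440.3 and 3866 at 1.0 µM. Its 1.0 µM arrays lay above DMSO by little, 0.15 ± 0.09 (adjusted p = 0.272), with an interval of −0.05 to 0.34 (95% confidence).

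**Figure D2:**
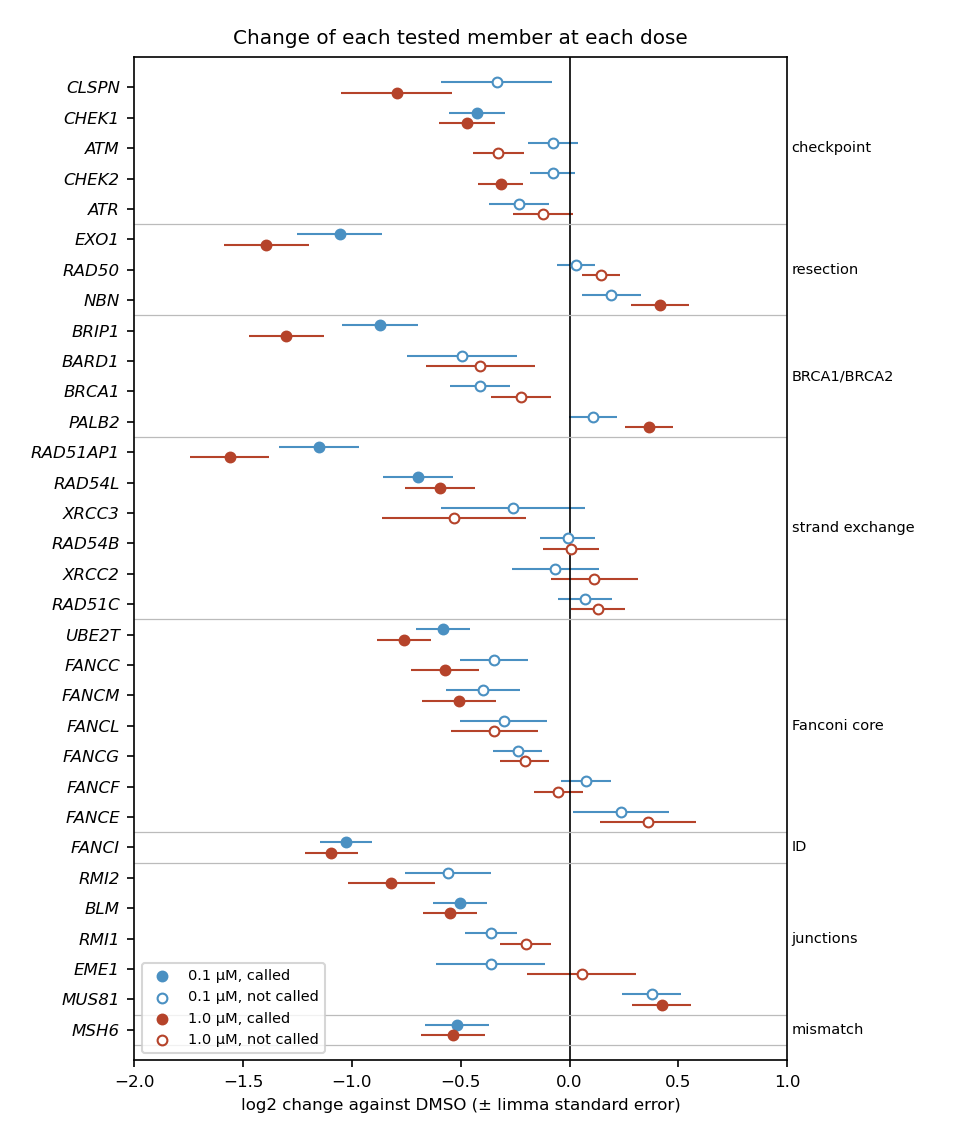
Log2 change against DMSO of each tested gene at 0.1 µM (blue) and 1.0 µM (red), with the limma standard error; filled points are called at an adjusted p under 0.05. RAD51AP1 at −1.56 is farthest left and MUS81 at 0.42 farthest right at 1.0 µM.

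Around BRCA1 and BRCA2, BRIP1 fell at both doses, PALB2 rose at 1.0 µM, and BRCA1 and BARD1 were not called. BRIP1 (also FANCJ) is a DNA helicase that binds BRCA1. Its signals were 491, 399 and 371 in DMSO, 246, 245 and 179 at 0.1 µM and 186, 145 and 152 at 1.0 µM. Every treated array was under every DMSO array, and the doses overlapped. BRIP1 changed by −0.87 ± 0.17 at 0.1 µM (adjusted p = 0.0063) and −1.30 ± 0.17 at 1.0 µM (adjusted p = 0.000196).

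PALB2, the bridge between BRCA1 and BRCA2, read 776, 694 and 869.5 in DMSO, 862, 869.6 and 784 at 0.1 µM and 918, 1019 and 1083 at 1.0 µM. The 1.0 µM arrays lay above all 6 others, and the 0.1 µM arrays lay among the DMSO arrays or at their upper end. The rise of 0.36 ± 0.11 at 1.0 µM (adjusted p = 0.0324) was not called without any 1 of DMSO replicates 1 or 2 or 1.0 µM replicates 2 or 3 (adjusted p 0.0599 to 0.129).

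BRCA1, the scaffold and ubiquitin ligase of the pathway, read 624, 519.8 and 521 in DMSO, 367, 445 and 428 at 0.1 µM and 514, 399 and 507 at 1.0 µM. All treated arrays were under the DMSO arrays, and the lowest array was at 0.1 µM. Within each group the arrays with bright spikes were the low ones, in DMSO by very little. BRCA1 changed by −0.41 ± 0.14 at 0.1 µM (adjusted p = 0.0769) and −0.23 ± 0.14 at 1.0 µM (adjusted p = 0.28). Without 1.0 µM replicate 2 it was called at 0.1 µM (adjusted p = 0.0433). The other BRCA1 probe set above the filter changed by −0.08 ± 0.18 at 0.1 µM and −0.0001 ± 0.18 at 1.0 µM. BARD1, the partner of BRCA1 in the ligase, read 1037, 663 and 963 in DMSO, 572, 893 and 453 at 0.1 µM and 719, 478 and 807 at 1.0 µM. Its groups overlapped, and in each group the arrays with bright spikes were the low ones. BARD1 changed by −0.41 ± 0.25 at 1.0 µM (adjusted p = 0.286), and with the spike set as a block it was called there (−0.41, adjusted p = 0.0149).

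Among the strand exchange genes, RAD51AP1 and RAD54L fell at both doses, and RAD51C, XRCC2, XRCC3 and RAD54B were not called. RAD51AP1 helps to pair a broken strand with its template. Its signals were 806, 639.9 and 715 in DMSO, 279, 412 and 270.1 at 0.1 µM and 208, 207 and 289 at 1.0 µM. All treated arrays were far under DMSO, and the doses overlapped. Within each group the arrays with bright spikes were the low ones, at 1.0 µM by very little. RAD51AP1 changed by −1.15 ± 0.18 at 0.1 µM (adjusted p = 0.00145) and −1.56 ± 0.18 at 1.0 µM (adjusted p = 7.33e-05), a 2.95-fold fall and the largest among the 32 genes.

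RAD54L, a motor protein of strand exchange, read 219, 274 and 256 in DMSO, 139, 150.1 and 153 at 0.1 µM and 146, 183 and 151 at 1.0 µM. Treated and DMSO arrays did not overlap, and 1.0 µM replicate 2 was the highest treated array. The change was −0.70 ± 0.16 at 0.1 µM (adjusted p = 0.0146) and −0.60 ± 0.16 at 1.0 µM (adjusted p = 0.0185). The call was lost at 0.1 µM without any 1 of DMSO replicate 2 or 0.1 µM replicate 1 (adjusted p 0.0549 to 0.0574) and at 1.0 µM without any 1 of DMSO replicate 2 or 1.0 µM replicates 1 or 3 (adjusted p 0.0682 to 0.0709).

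XRCC3, which forms a complex with RAD51C, lay near the filter at 46.7, 54.1 and 65.7 in DMSO, 64.2, 52.2 and 22.2 at 0.1 µM and 22.7, 35.2 and 44.0 at 1.0 µM. The 1.0 µM arrays were under DMSO, but the spread was wide and the change of −0.53 ± 0.33 was not called (adjusted p = 0.292). RAD51C, XRCC2 and RAD54B, the first pair subunits of one complex and the last a relative of RAD54L, changed by 0.13 ± 0.12, 0.11 ± 0.20 and 0.01 ± 0.13 at 1.0 µM. Their intervals (95% confidence) were −0.14 to 0.40, −0.32 to 0.55 and −0.27 to 0.29, and that of RAD54B did not reach the estimate for RAD54L.

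**Figure D3:**
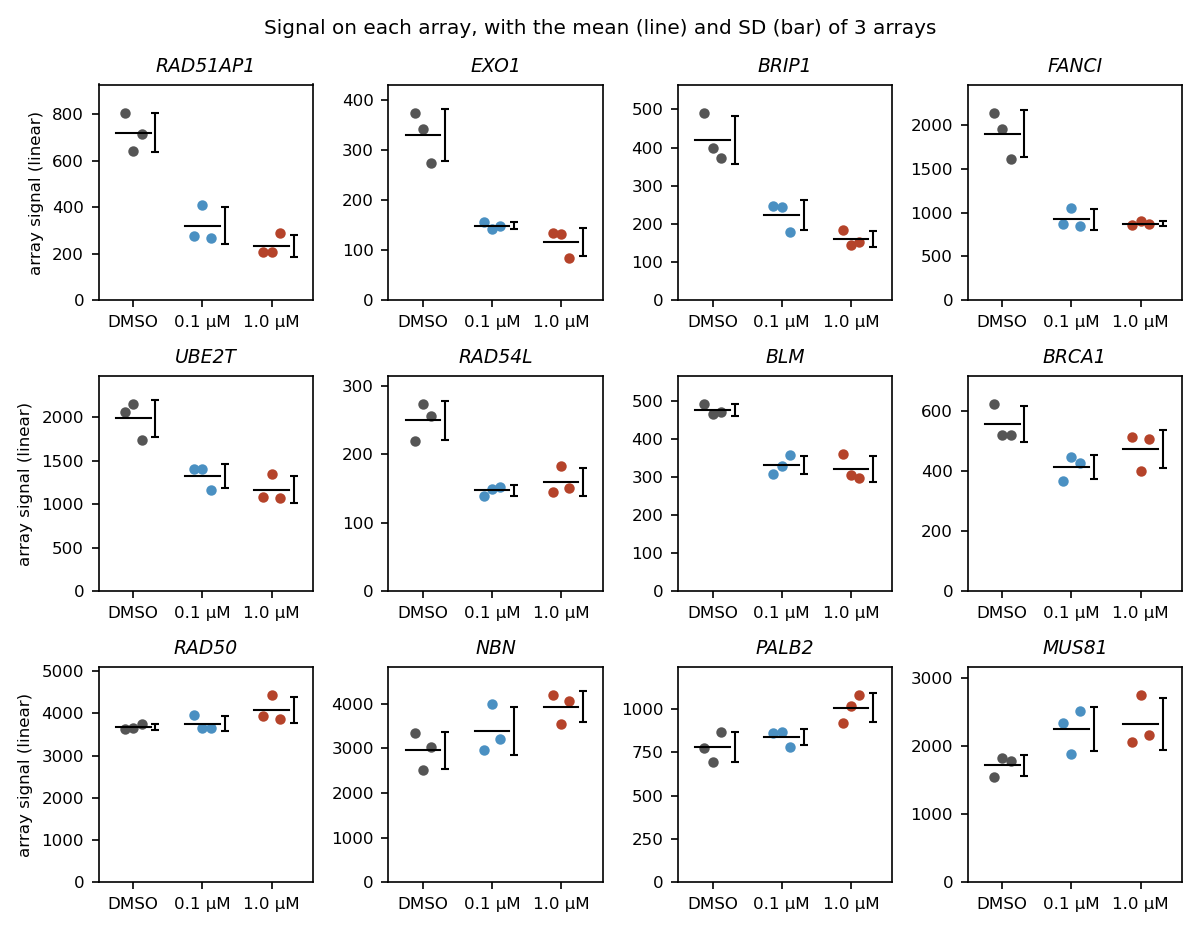
Deposited signal (linear axis from 0) of 12 genes on each array, for DMSO (grey), 0.1 µM (blue) and 1.0 µM (red), with the mean as a line and the SD of 3 arrays as a bar beside it. RAD51AP1, EXO1, BRIP1, FANCI, UBE2T, RAD54L and BLM show no overlap between treated and DMSO arrays; NBN at 0.1 µM overlaps DMSO.

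In the Fanconi core complex and its conjugating enzyme, UBE2T fell at both doses, FANCC and FANCM fell at 1.0 µM, and FANCE, FANCF, FANCG and FANCL were not called. UBE2T is the enzyme that, with the ligase FANCL, puts ubiquitin on FANCI and FANCD2. Its signals were 2056, 2152 and 1741 in DMSO, 1402, 1402 and 1158 at 0.1 µM and 1079.8, 1348 and 1072 at 1.0 µM. No treated array reached the DMSO arrays, and the doses overlapped. UBE2T changed by −0.58 ± 0.12 at 0.1 µM (adjusted p = 0.00977) and −0.76 ± 0.12 at 1.0 µM (adjusted p = 0.000921); the call at 0.1 µM was lost without 0.1 µM replicate 3 (adjusted p 0.06).

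FANCC, a subunit of the core complex, read 499, 544 and 403 in DMSO, 391, 309.6 and 428 at 0.1 µM and 346, 320.5 and 286 at 1.0 µM. The 1.0 µM arrays were under DMSO, and 0.1 µM replicate 3 lay above DMSO replicate 3. The change was −0.35 ± 0.16 at 0.1 µM (adjusted p = 0.187) and −0.57 ± 0.16 at 1.0 µM (adjusted p = 0.0192), the latter not called without any 1 of DMSO replicates 1 or 2 or 1.0 µM replicate 3 (adjusted p 0.0609 to 0.0792). With the mean of its probe sets above the filter, FANCC changed by −0.11 (adjusted p = 0.717); its other such probe set was dim, at 0.35 ± 0.29.

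FANCM, the motor protein that anchors the core complex at a fork, read 151, 155 and 180.2 in DMSO, 116, 115 and 126 at 0.1 µM and 116, 106 and 106 at 1.0 µM. Treated and DMSO arrays did not overlap at either dose. FANCM changed by −0.40 ± 0.17 at 0.1 µM (adjusted p = 0.161) and −0.51 ± 0.17 at 1.0 µM (adjusted p = 0.0477), which was lost without any 1 of the 9 arrays (adjusted p 0.0607 to 0.131). Its other probe set above the filter changed by −0.02 ± 0.27.

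FANCL, the ligase, changed by −0.35 ± 0.20 at 1.0 µM (adjusted p = 0.252), with 1.0 µM replicate 2 at 1176 and the other 1.0 µM arrays at 2077 and 2051. FANCG, FANCF and FANCE, further core subunits, changed by −0.21 ± 0.11, −0.05 ± 0.11 and 0.36 ± 0.22. FANCE was the core subunit with the highest estimate, but 1.0 µM replicate 1 lay among the DMSO arrays (adjusted p = 0.284).

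FANCI, which with FANCD2 receives the ubiquitin, fell at both doses. Its signals were 2136, 1948 and 1611 in DMSO, 865, 1055 and 844 at 0.1 µM and 855, 902 and 866 at 1.0 µM. The treated arrays lay far under DMSO and the doses overlapped. The change was −1.03 ± 0.12 at 0.1 µM (adjusted p = 0.000178) and −1.09 ± 0.12 at 1.0 µM (adjusted p = 4.76e-05). The other 2 FANCI probe sets fell as well, by 1.03 ± 0.17 and 0.75 ± 0.12 at 1.0 µM.

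Among genes that take joined molecules apart, RMI2 fell at 1.0 µM, BLM fell at both doses, and MUS81 rose at 1.0 µM; RMI1 and EME1 were not called. BLM is a helicase that, with TOP3A, RMI1 and RMI2, dissolves joined molecules without crossing over. BLM read 492, 464 and 469 in DMSO, 308, 329 and 356 at 0.1 µM and 360.0, 304 and 298 at 1.0 µM. Treated and DMSO arrays were apart and the doses overlapped. Its change was −0.50 ± 0.12 at 0.1 µM (adjusted p = 0.0201) and −0.55 ± 0.12 at 1.0 µM (adjusted p = 0.00694); at 0.1 µM the call was lost without any 1 of DMSO replicate 1 or 0.1 µM replicate 1 (adjusted p 0.0702 to 0.084).

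RMI2 read 392, 361 and 495 in DMSO, 259, 299.9 and 267 at 0.1 µM and 319, 203 and 179 at 1.0 µM. All treated arrays were under DMSO, and 1.0 µM replicates 2 and 3 were the lowest. RMI2 changed by −0.56 ± 0.20 at 0.1 µM (adjusted p = 0.0953) and −0.82 ± 0.20 at 1.0 µM (adjusted p = 0.0106), and without 1.0 µM replicate 1 it was called at 0.1 µM too (adjusted p = 0.042). RMI1 changed by −0.36 ± 0.12 at 0.1 µM (adjusted p = 0.0716) and −0.20 ± 0.12 at 1.0 µM (adjusted p = 0.259); it was called at 0.1 µM without 0.1 µM replicate 2 (adjusted p = 0.0286).

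MUS81, the nuclease that cuts such junctions together with EME1, read 1542, 1822 and 1785 in DMSO, 2334, 1886 and 2517 at 0.1 µM and 2059, 2750.0 and 2155 at 1.0 µM. All treated arrays were above all DMSO arrays, and within each group the arrays with bright spikes were the high ones. The change was 0.38 ± 0.14 at 0.1 µM (adjusted p = 0.0971) and 0.42 ± 0.14 at 1.0 µM (adjusted p = 0.0402). The call at 1.0 µM was lost without any 1 of DMSO replicates 1, 2 or 3, 0.1 µM replicate 1 or 1.0 µM replicates 2 or 3 (adjusted p 0.0532 to 0.135). At 0.1 µM it was called without 0.1 µM replicate 2 (adjusted p = 0.0367) or 1.0 µM replicate 2 (adjusted p = 0.0459). EME1 changed by 0.06 ± 0.25 at 1.0 µM, from 814 ± 207 to 871 ± 321 (SD, n = 3), but its other probe set fell by 0.68 ± 0.15 (adjusted p = 0.00757).

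MSH6, which recognises mismatched bases, read 2748, 2079.9 and 2448 in DMSO, 1660.2, 1618 and 1764 at 0.1 µM and 1973, 1298 and 1781 at 1.0 µM. All treated arrays were under the DMSO arrays, and the means of the doses were nearly equal. MSH6 changed by −0.52 ± 0.15 at 0.1 µM (adjusted p = 0.0398) and −0.53 ± 0.15 at 1.0 µM (adjusted p = 0.0202). The call was lost at 0.1 µM without any 1 of DMSO replicates 1 or 3, 0.1 µM replicates 1, 2 or 3 or 1.0 µM replicate 3 (adjusted p 0.0541 to 0.145) and at 1.0 µM without any 1 of DMSO replicates 1 or 3 (adjusted p 0.0572 to 0.0805).

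Over the 60 probe sets of these genes above the filter, 23 were lower and 3 higher at 1.0 µM, where 9.77% of all 26873 probe sets of 1 gene were lower. The share of all probe sets that were higher was not counted, and 12.3% of all tested genes were higher. No gene had probe sets called in both directions. Probe sets of ATM, BARD1 and EME1 were called lower although the brightest probe set of each gene, which stands for it in the counts above, was not. The called BARD1 probe set fell by 0.40 ± 0.11 (adjusted p = 0.0219). The rise of NBN and the falls of CLSPN, CHEK1, FANCC and FANCM were each called in some but not all of their probe sets.

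**Figure D4:**
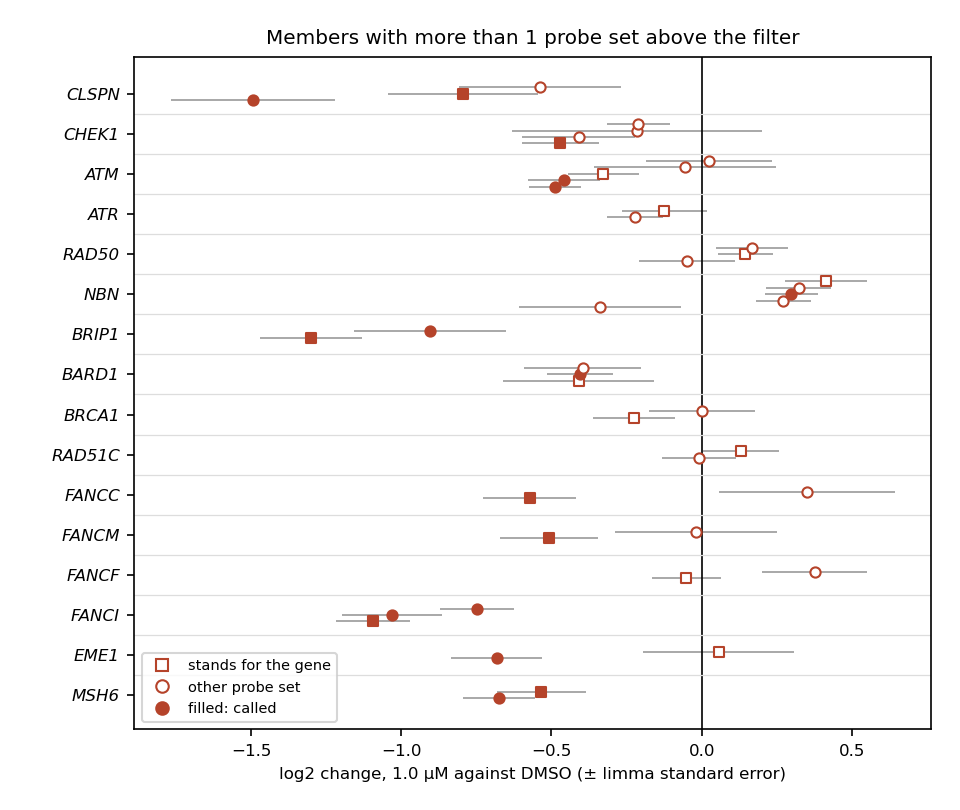
Log2 change at 1.0 µM against DMSO, with the limma standard error, of every probe set above the filter for genes with more than 1; squares stand for the gene, circles are its other probe sets, and filled marks are called over all probe sets. All 3 FANCI probe sets lie at −0.75 or lower, while those of ATM, EME1, FANCC, FANCF, NBN, RAD50 and RAD51C lie on both sides of 0.

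No gene of the 32 was called between 1.0 and 0.1 µM in limma, where 0.817% of all tested genes were. At an unadjusted p under 0.05 there were 4 (BRIP1, CHEK2, PALB2 and RAD51AP1). Of all 13948 tested genes 1726 were under it, a similar share. A fit with array weights called 4, ATM, NBN, PALB2 and EME1, with no count over all tested genes beside it. The median difference was −0.03, and 28 of the 32 intervals (95% confidence) held 0, reaching a median of 0.30 and at most 0.72 to either side of the estimate. For RAD51AP1 the difference was −0.41 ± 0.18 (interval −0.81 to −0.01, adjusted p = 0.388). BRIP1 differed by −0.43 ± 0.17 (interval −0.81 to −0.05, adjusted p = 0.336). FANCI differed by −0.07 ± 0.12 (interval −0.33 to 0.20). CLSPN, which was called at 1.0 µM but not at 0.1 µM, differed by −0.46 ± 0.25 between the doses (interval −1.01 to 0.09, adjusted p = 0.51). With 3 arrays a group, differences between the doses smaller than these intervals could not be shown.

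Other recombination genes, from a list of 31 with 28 tested, gave 10 lower and 2 higher at 1.0 µM and 6 lower at 0.1 µM, with a median of −0.19 at both. POLQ, the polymerase of end joining at short homologies, changed by −1.21 ± 0.18 at 0.1 µM and −1.40 ± 0.18 at 1.0 µM (adjusted p = 0.000153). MND1, a partner of the strand exchange enzymes, changed by −1.01 ± 0.19 at 1.0 µM, DNA2, a resection nuclease, by −0.93 ± 0.22, and FIRRM by −0.92 ± 0.18.

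The remaining Fanconi genes, 15 tested of 16, were split: 3 lower and 2 higher at 1.0 µM, with a median of 0.05, and 3 lower and 1 higher at 0.1 µM, with a median of −0.01. FAAP100, a core complex subunit that binds FANCL, averaged 1947 ± 215 in DMSO, 1426 ± 126 at 0.1 µM and 794 ± 106 at 1.0 µM (SD, n = 3). It changed by −1.28 ± 0.12 at 1.0 µM and, as none of the 32 genes was, was called between the doses, at −0.84 ± 0.12 (adjusted p = 0.0109). CENPX, which binds FANCM, changed by −0.60 ± 0.09, and REV3L, the catalytic subunit of a polymerase that copies past lesions, by −0.49 ± 0.11. ERCC1 and ERCC4, which together form the nuclease that unhooks crosslinks, rose by 0.62 ± 0.10 and 0.46 ± 0.12 at 1.0 µM (adjusted p = 0.00118 and 0.0185).

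Other damage signalling genes (20 tested) gave 2 lower and 3 higher at 1.0 µM and 2 lower and 2 higher at 0.1 µM, with medians of −0.07 and −0.04. H2AX, the histone that is phosphorylated beside breaks, changed by −0.86 ± 0.13 at 1.0 µM, while TIPIN of the fork protection complex changed by 0.83 ± 0.10 and the BRCA1-A subunits ABRAXAS1 and BABAM2 by 0.70 ± 0.18 and 0.55 ± 0.09. Of 11 tested genes of nonhomologous end joining, the competing pathway, 1 was lower (PRKDC, −0.32 ± 0.08) and 2 higher (APLF, 0.95 ± 0.24, and APTX, 0.29 ± 0.08) at 1.0 µM, and 1 lower and 1 higher at 0.1 µM; the medians were −0.05 at both doses. Of 4 other mismatch repair genes, PCNA changed by −1.01 ± 0.11 and PMS1 by 0.72 ± 0.10 at 1.0 µM, and both were also called at 0.1 µM, at −0.66 ± 0.11 and 0.41 ± 0.10.

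Of 18 genes of the E2F and DREAM regulators, which control cell cycle transcription, 5 were lower at 1.0 µM, with a median of 0.06, and 3 were lower at 0.1 µM, with a median of −0.14. MYBL2, which drives late cell cycle genes, changed by −1.41 ± 0.19 at 0.1 µM and −1.65 ± 0.19 at 1.0 µM (adjusted p = 6.72e-05). E2F8, FOXM1 and TFDP1 changed by −1.05 ± 0.21, −0.72 ± 0.19 and −0.56 ± 0.08 at 1.0 µM. E2F7, a repressor of the family chosen here after its values were seen, was called between the doses, at 0.69 ± 0.13 (adjusted p = 0.0367). The proliferation markers fell by more than most repair genes: at 1.0 µM RRM2 changed by −1.92 ± 0.10, TOP2A by −1.52 ± 0.13, CDK1 by −1.48 ± 0.12, CCNE2 by −1.42 ± 0.18, CCNA2 by −1.11 ± 0.15, MKI67 by −1.05 ± 0.09 and CCNB1 by −0.95 ± 0.10. Against these, RAD51AP1, EXO1, BRIP1 and FANCI were the only ones of the 32 genes whose change at 1.0 µM reached the smallest of the marker changes, −0.95.

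**Figure D5:**
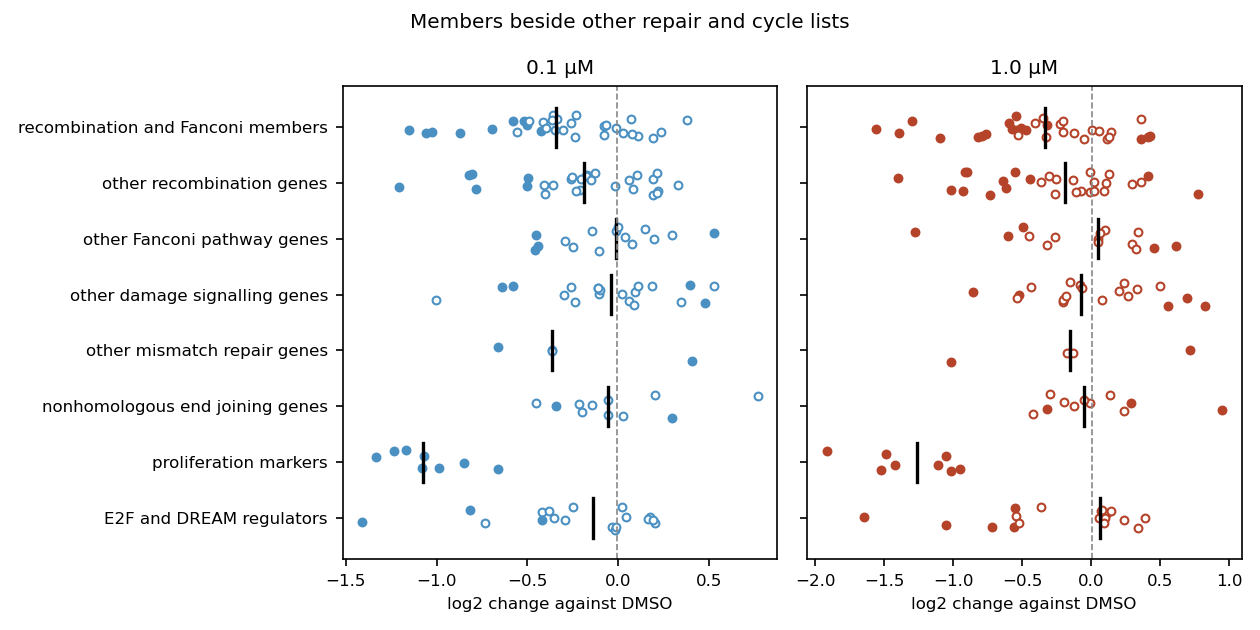
Log2 change against DMSO at 0.1 µM (left) and 1.0 µM (right; the horizontal axes differ) of each tested gene of 8 lists, with the list median as a black bar and the median of all tested genes as a dashed line; filled points are called, and heights within a list only part the points. The median of the 32 recombination and Fanconi genes is −0.34 at both doses, and that of the proliferation markers is −1.07 and −1.26.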

How the data were processed

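RNA of 9 PANC-1 samples was measured on 1 array each. The values the authors deposited are intensities of the probe sets, not on a log scale, and are MAS5 signals per the submitters' processing notes (version not given in the sources used here). Signals were turned into log2(signal + 16) with no further normalization. Probe sets whose mean level passed the 40th percentile and that had 1 gene symbol (26873, symbols updated to RefSeq on GRCh38.p14) were kept, and the brightest stood for its gene. The 3 groups were fitted in 1 model with limma 3.58.1 (lmFit and eBayes with trend, two-sided, 6 residual degrees of freedom) in R 4.3.3, with Benjamini-Hochberg adjustment over 13948 genes or 26873 probe sets; the code was tested on simulated data. Genes with full signals are those with the largest change at 1.0 µM in each role (up to 3), those called higher, and BRCA1; from other lists every called gene was named, or the 4 with the largest change where over 15 were tested. The members, lists and tests were chosen with earlier results of these data known. The number of arrays limits the precision. The 22Rv1 cells named in the design text were not analysed here.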

Additional observations from a re-analysis of the deposited data

How the results depend on the processing

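No result reversed its direction where it was called. At 1.0 µM, where 14 genes were called lower, the count was 7 with only the 5 arrays of dim spikes (ATM, not among the 14, included), 8 with a fold of at least 1.5 as well, and 8 to 12 with 1 array left out. At 0.1 µM, where 9 were, it was 5 with that fold and 5 to 10 with 1 array left out. With only the dim-spike arrays, where 0.1 µM keeps 1 array, limma called 0 at that dose (10 genes at an unadjusted p under 0.05). Between the doses array weights called 4 and leaving out 1 array called 0. The spike set as a block gave 16 lower at 1.0 µM and 10 at 0.1 µM, and only the 4 bright-spike arrays, chosen after seeing the data, 11 and 8; DMSO and 1.0 µM then hold 1 array each, assumed to vary like the 2 at 0.1 µM. Median centring gave 12 and 6, no filter 11 and 7, and all probe sets 17 and 9. The 3 genes higher at 1.0 µM became 0 with a replicate block, median centring, no trend in the variance or a fold of at least 1.5, and 0 to 3 with 1 array left out. The median change of the 32 genes at 1.0 µM was −0.32 within the dim set (2 arrays against 2) and −0.45 within the bright set (1 array against 1, with no replicate).

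Arrays with the same replicate number did not deviate together (correlations of −0.34 to 0.22, beside −0.26 to 0.27 for other pairs). Some arrays with the same number differ in spike set, so this cannot show whether they shared a step of preparation. With a replicate block 11 genes were lower at 1.0 µM, 7 at 0.1 µM and 0 differed between the doses.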
